A study of Mus musculus with 8 samples.

Results

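The glioma library held 271 barcodes that passed a gate for conventional CD4 T cells, the T cells that carry the CD4 co-receptor and lack Foxp3. They were 271 of 10963 glioma cells, a share of 2.47% (exact 95% Clopper-Pearson interval 2.19 to 2.78%), and 271 of 24420 cells in the whole series. A member was a barcode with at least 1000 unique molecular identifiers (UMIs), at least 500 genes and at most 10% mitochondrial UMIs. It had at least 2 UMIs over Cd3d, Cd3e and Cd3g and at least 1 UMI of Cd4. It had no UMI of Foxp3, Cd8a, Cd8b1, Csf1r, Trdc or Tcrg-C1, and fewer than 5 UMIs over Gzmd, Gzme, Gzmf and Ccl1. The values of these genes therefore describe the choice of cells and are not findings.

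The study profiled CD45+ cells, mostly leukocytes and microglia, that were taken from mouse tissue by magnetic sorting and sequenced by a droplet method that counts 3′ ends. The control group was normal mouse brain and the glioma group was tumour from glioma-bearing mice, with 4 labelled samples in each. The labels give no strain, age, sex, tumour line or treatment for either group. Each group's counts form 1 pooled matrix in which no cell can be assigned to a sample, so there is 1 library per group, no test was run, and differences between animals cannot be told apart from differences between cells.

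Conventional CD4 T cells recognise peptides on MHC class II molecules and act largely through the cytokines they secrete and the ligands they display, among them CD40 ligand, which licenses antigen-presenting cells. After activation they raise costimulatory receptors of the TNF receptor family such as OX40, the product of Tnfrsf4, and they can take up T helper programs marked by transcription factors such as T-bet, GATA3 and BCL6. In tumours they occur beside regulatory T cells, which share CD4 and many activation genes but are defined by Foxp3, and beside CD8 T cells, which kill target cells through granzymes and perforin. The NR4A nuclear receptors are induced when the T cell receptor is engaged.

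The glioma library held 159689787 UMIs and the control library 124023146, with medians of 11433 and 6862 UMIs per cell. Members had a median of 6990 UMIs (range 1279 to 37409), 1964 genes and 3.08% mitochondrial UMIs, and together held 2193785 UMIs. They were compared with 3 glioma T cell classes gated in the same way: 337 CD8 cells (Cd8a or Cd8b1, no Cd4 and no Foxp3), 98 regulatory T cells (the members' gate but with a Foxp3 UMI) and 108 CD4 cells with 5 or more UMIs of Gzmd, Gzme, Gzmf and Ccl1, called Gzmd/e/f-high below. Their median depths were 8555, 9216 and 11125 UMIs. Macrophages (5897 cells, median 14520 UMIs), gated on at least 2 Csf1r UMIs and no CD3 UMI, served as a class that should lack T cell genes. Levels are CPM, the UMIs of a gene per 1000000 UMIs summed over a class, differences are log2 ratios of these levels with 0.5 UMIs added to each sum, and intervals are exact 95% intervals that cover counting error only. In summed classes, fewer cells of a kind and less RNA per cell cannot be told apart.

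Of 1718 glioma cells with at least 2 CD3 UMIs, 751 had a Cd4 UMI. The Foxp3 step removed 182 of these, the Cd8 step 45, the Csf1r step 139, the γδ step 6 and the granzyme step 108. Many members lay near a limit: 74 had exactly 1 Cd4 UMI, while 188 otherwise eligible cells with no Cd8 UMI had none. CD3 sums were exactly 2 in 9 members and 1 in 4 cells just outside. A single Foxp3 UMI put 34 cells outside, and a single Csf1r UMI another 34, which had a median of 11702 UMIs. The granzyme sum was 4 in 7 members and 5 in 6 cells just outside, and 64 members had at least 1 such UMI. Members had a median of 3 Cd4 UMIs (1 to 14) and of 15 CD3 UMIs (2 to 71). Requiring 2 Cd4 UMIs left 197 members.

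T cell receptor genes that the gate did not read were those of T cells, but not of conventional CD4 cells in particular. Trac, the constant region of the α chain, was seen in 83.8% of members at 424 CPM and in 1.12% of macrophages at 0.758 CPM. Members were chosen with CD3 UMIs and macrophages without any, so the gates bear on this contrast. Trac was within 2-fold of CD8 cells (log2 ratio 0.36) and of regulatory T cells (0.13), so it does not set members apart from them. At least 1 of the β chain constant genes was seen in all but 8 members: Trbc2 alone in 133, both in 121 and Trbc1 alone in 9. Variable segments were sparse, with an α segment in 35 members and a β segment in 33. These came from 22 α and 13 β segments, led by Trav19 in 6 cells and Trbv3 in 9, so no repertoire can be read from them.

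Markers of other cell types were read in every class. The members' monocyte or macrophage list summed to 1110.0 CPM, against 958 in CD8 cells, 1117 in regulatory T cells, 922 in Gzmd/e/f-high cells and 27701 in macrophages, and only Csf1r of its 15 genes was at 0. The dendritic cell list, which holds MHC class II genes, summed to 3691 CPM, against 4353, 7302 and 2850.2 CPM in the 3 T cell classes and 31057 CPM in macrophages, with Cd209a at 0. The B cell list summed to 32.4 CPM in members, against 27.4, 141 and 2.92 CPM in the 3 T cell classes, with 3 of its 10 genes at 0, among them Ms4a1 and Pax5. The tumour or neural list summed to 775 CPM, against 753, 1775 and 744 CPM. Of that sum 707 CPM was Vim, a cytoskeletal gene that T cells also express, and 62.4 CPM was Mbp, while Sox2, Olig1, Olig2, Pdgfra, Gfap and Egfr were at 0. The endothelial list summed to 32.8 CPM, with 6 of 9 genes at 0, among them Cldn5, Kdr and Cdh5. Free RNA was at most 6.76% of the members' UMIs by the genes they should lack. In 12 members at least 2% of UMIs came from 41 dendritic, neutrophil and macrophage genes including Il1b and Cxcl2. The median member had 0.166% and the highest 7.19%. The 12 cells had a median of 14196.5 UMIs against 6851 in the other members. Such cells made up 4.43% of members, 5.04% of CD8 cells, 11.2% of regulatory T cells and 5.56% of Gzmd/e/f-high cells. Leaving out these cells, or the 932 glioma cells of highest doublet score, 8 of them members, reversed no ratio reported here. The barcode of 1 member also had at least 300 UMIs in the control library, and without such barcodes (270 members) no count of genes past 2-fold moved by over 1.5 times.

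**Figure D1:**
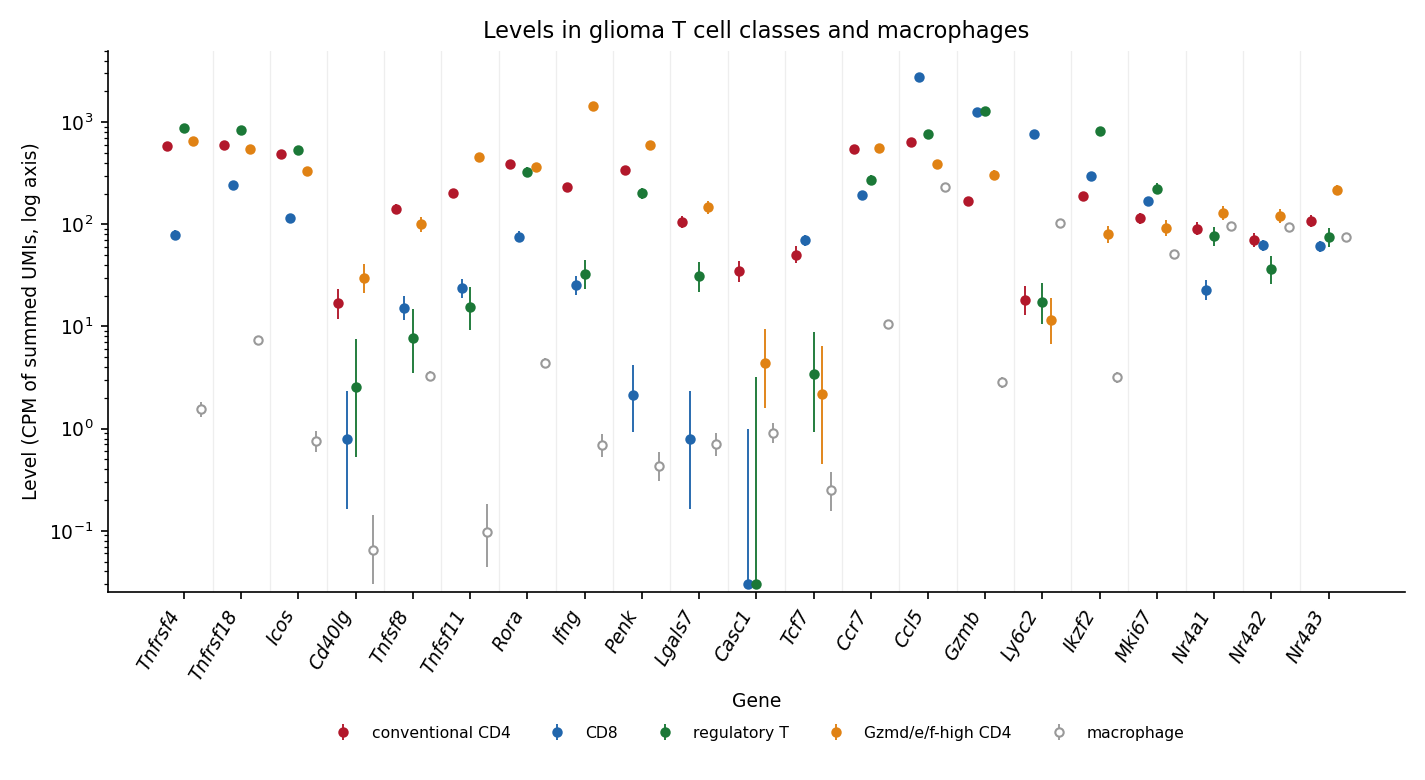
Levels of 21 genes (CPM of summed UMIs, log axis) in the conventional CD4 T cells, the 3 compared T cell classes and macrophages; points are class sums, bars exact 95% Poisson intervals, and sums of 0 (Casc1 in CD8 and regulatory T cells) are drawn at the lower edge. Tnfrsf4, Icos, Tnfsf8 and Penk lie well above the CD8 level in members, while Gzmb, Ccl5 and Ly6c2 lie below it, and the 3 Nr4a genes lie close to the macrophage level.

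The comparison with CD8 cells separated the members by costimulatory receptors, helper ligands and a set of cytokines on the high side. On the low side were Gzma, Gzmb and Gzmk, several killer-cell receptor genes, and the chemokines Ccl5 and Xcl1. The chemokines Ccl3 and Ccl4 were on the high side. OX40 (Tnfrsf4, chr4:156013843-156016612 in GRCm38) reached 582 CPM in members and 79.4 CPM in CD8 cells. The opioid precursor gene Penk reached 342 CPM and 2.13 CPM. Granzyme B (Gzmb) went the other way, with 167 CPM against 1255 CPM. Of 9308 genes with at least 20 UMIs over both sums, 615 (6.61%) were at least 2-fold higher in members and 511 (5.49%) at least 2-fold lower, with a median log2 ratio of 0.03 over all of them. These are descriptions of 1 library at a fold threshold.

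Receptors of the TNF receptor family were among the genes higher in members than in CD8 cells. Tnfrsf4 had a log2 ratio of 2.87 (2.69 to 3.06) over CD8 cells. It was seen in 232 of 271 members (85.6%), with 34 cells at 1 UMI, 82 at 2 to 4 and 116 at 5 or more. It was seen in 23.7% of CD8 cells and 2.19% of macrophages. After each cell was thinned to 2000 UMIs, which left out 3 members, the shares were 61.6% of members, 7.46% of CD8 cells and 0.290% of macrophages. GITR, encoded by the neighbouring Tnfrsf18 (chr4:156026164-156028895), was at 603 CPM in members and 244 CPM in CD8 cells. Its log2 ratio was 1.30 (1.18 to 1.43). 4-1BB (Tnfrsf9) was at 367 CPM against 139 CPM, a log2 ratio of 1.40 (1.24 to 1.56). Members ranged from 0 to 46 UMIs of Tnfrsf4, and the classes overlapped cell by cell.

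Of the immunoglobulin-family costimulators, ICOS was at 484 CPM in members and 115 CPM in CD8 cells, a log2 ratio of 2.08 (1.91 to 2.24). Cd28, the classical costimulatory receptor, was at 183 CPM and 65.8 CPM. All 7 tested genes of the CD4 helper list were at least 2-fold higher than in CD8 cells (median log2 ratio 2.59). In the activation and costimulation list 15 of 20 tested genes were higher and none lower (median 1.31). The transcription factor Zbtb7b, which sets the CD4 lineage in the thymus, was at 24.6 CPM against 4.0 CPM, but macrophages held 27.3 CPM.

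Helper ligands were high over CD8 cells. The shares of cells given here are of cells with at least 1 UMI and do not limit how many express the gene. CD40 ligand (Cd40lg) was seen in 33 members (12.2%) at 16.9 CPM, in 0.593% of CD8 cells at 0.799 CPM, and in 0.0848% of macrophages. Its log2 ratio was 4.20 (2.74 to 6.74). Without the cells rich in myeloid transcripts the ratio was 6.96. The CD8 level was so low that the fraction of a UMI added to each sum can set this size. The value of 6.96 is therefore read as a direction only. CD30 ligand (Tnfsf8) was seen in 95 members (35.1%) at 141 CPM against 15.2 CPM, a log2 ratio of 3.21 (2.81 to 3.65). RANK ligand (Tnfsf11), a member of the same family, was seen in 123 members (45.4%) at 201 CPM against 23.7 CPM, a log2 ratio of 3.08 (2.75 to 3.43). Tnfsf8 was seen in 37.1% of members with Tnfrsf4 (30.8 to 43.6%) and in 23.1% of those without it (11.1 to 39.3%), whose median depths were 7317.5 and 5807 UMIs. These intervals overlap.

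The genes of largest ratio over CD8 cells, chosen by a fixed rule, were Casc1, Penk, Lgals7, Gpm6b, Serpinb9b, Wisp1, Ermn and St6gal1. Casc1 had 76 UMIs in 27 members (9.96%) and none in CD8 cells, which puts it at least 43.3-fold higher against a floor of 3 UMIs in the CD8 sum. Penk, the precursor of the enkephalin peptides (chr4:4133531-4138819), was seen in 61 members (22.5%), 35 of them with at least 5 UMIs and the highest with 98. Its log2 ratio was 7.24 (6.34 to 8.54), and macrophages showed it in 0.678% of cells. Galectin-7 (Lgals7) was at 106 CPM against 0.799 CPM, a log2 ratio of 6.83 (5.48 to 9.34) that dropped to 3.84 where 1 Csf1r UMI was allowed. Gpm6b, a membrane glycoprotein best known from neurons, was at 60.6 CPM against 0.533 CPM. St6gal1, a sialyltransferase, was at 52.4 CPM against 1.86 CPM. The secreted matrix protein gene Wisp1 was at 59.7 CPM against 1.07 CPM, and Ermn at 55.2 CPM against 1.33 CPM. Serpinb9b, a granzyme-inhibitor family gene with close relatives whose reads may be shared, was at 43.3 CPM against 0.533 CPM. Each of the 8 was detected in fewer than 25% of members.

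On the low side, 6 of 8 tested CD8 identity genes were at least 2-fold lower in members and none higher (median log2 ratio -1.74). They included the chemokine Xcl1 (5.01 against 100.4 CPM), the activating receptor Klrk1 (25.1 against 209.7 CPM) and the transcription factor Eomes (5.93 against 37.0 CPM). Of 15 cytotoxic effector genes 6 were lower and 1 higher (median -0.79). Gzmb had a log2 ratio of -2.90 (-3.06 to -2.75), and -3.75 without the 22 members of sub-cluster 6 described below. The chemokine Ccl5 was at 633 CPM against 2765 CPM. Gzma was at 40.6 CPM against 946 CPM, and 1 cell held 68.5% of the members' UMIs. The other genes of smallest ratio were Tcrg-C2, Ly6c2, Klra7, Dapl1, Klra6 and Cd7. Ly6c2, at 18.2 against 758 CPM and a log2 ratio of -5.36 (-5.87 to -4.93), belongs like Klra6 and Klra7 to a family of near-identical genes, so its reads are uncertain. Tcrg-C2, which resembles the gated Tcrg-C1, was at 0.456 CPM in members and 69.0 CPM in CD8 cells.

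The costimulatory receptors described over CD8 cells were not higher than in regulatory T cells. Tnfrsf4 was lower in members (582 against 867 CPM, log2 ratio -0.57, -0.70 to -0.45), as was Tnfrsf18 (603 against 841 CPM). Icos, at 484 and 531 CPM, had a ratio whose interval held 0 (-0.28 to 0.01). The helper ligands separated members from regulatory T cells: Tnfsf8 was at 7.74 CPM in regulatory T cells (log2 ratio 4.11, 3.25 to 5.33), Tnfsf11 at 15.5 CPM (3.66, 3.02 to 4.47) and Cd40lg at 2.58 CPM (2.51, 1.05 to 5.05). Of 8186 tested genes 337 (4.12%) were at least 2-fold higher in members and 477 (5.83%) at least 2-fold lower, with a median of -0.08.

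Among genes known from regulatory T cells, 7 of 15 tested were at least 2-fold lower in members and 1 higher (median -0.99). Helios (Ikzf2) was at 189.6 against 819 CPM, a log2 ratio of -2.11 (-2.28 to -1.94). The IL-2 receptor α chain (Il2ra) was at 72.5 against 266 CPM, and folate receptor 4 (Izumo1r) at 62.4 against 231 CPM. GARP (Lrrc32), which presents latent TGF-β, was at 19.6 against 86.9 CPM. The exception was the co-receptor Nrp1, at 56.5 against 12 CPM (2.19, 1.43 to 3.14). The gate split the classes by Foxp3, so this comparison says how far genes that travel with Foxp3 were split too. All 4 of Il2ra, Ikzf2, Ctla4 and Izumo1r were seen in 13 members (4.80%, 2.58 to 8.06%), in 49 of 98 regulatory T cells (50%), in 3 CD8 cells and in 4 Gzmd/e/f-high cells.

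The genes furthest below regulatory T cells included Rapsn, Klrg1, Gzmb, Mt3, Lmna and Itgb8. Klrg1, a receptor of differentiated effector cells, was at 13.2 against 129 CPM (log2 ratio -3.27, -3.91 to -2.71) and at -5.59 without sub-cluster 6. Gzmb, at 167 against 1272 CPM, was as far below regulatory T cells as below CD8 cells (-2.93, -3.10 to -2.76). Itgb8, a subunit of the integrin that activates TGF-β, was at 14.1 against 64.5 CPM. Cell migration receptors thus differed in both directions: Ccr2 was at 111 against 422 CPM, and Cxcr6, the receptor for CXCL16, at 253 against 31.8 CPM (2.97, 2.51 to 3.51).

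The genes furthest above regulatory T cells were Casc1, Csf2, Serpine2, Serpinb9b, AC163354.1, St6gal1, Gldc and Gzmc. Casc1 had no UMI in regulatory T cells and was at least 13.4-fold higher. GM-CSF (Csf2) had none either and was at least 10.1-fold higher, but 33.3% of its 57 UMIs came from 1 member. The protease inhibitor Serpine2 was at 43.8 against 0.860 CPM, and the glycine cleavage enzyme Gldc at 63.4 against 2.58 CPM. Gzmc, a gene of the granzyme cluster on chromosome 14 with near-identical neighbours, was at 112 against 5.16 CPM. Genes of less differentiated T cells were also above: Tcf7, the transcription factor TCF-1, was at 50.6 against 3.44 CPM (3.71, 2.48 to 5.78), and the survival factor Bcl2 at 109.9 against 13.8 CPM (2.96, 2.27 to 3.83).

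Gzmd/e/f-high CD4 cells differ from members by their granzyme and Ccl1 UMIs, so the other genes of that contrast carry the description. Members were above them in genes of circulating and less differentiated T cells and below them in effector genes. Tcf7 was at 50.6 against 2.19 CPM (log2 ratio 4.32, 2.95 to 6.83), and the lymph-node egress receptor S1pr1 at 40.1 against 3.65 CPM (3.33, 2.18 to 5.12). Interferon-γ (Ifng) was at 232 against 1453 CPM (-2.65, -2.79 to -2.51), and perforin (Prf1) at 21.9 against 177 CPM (-3.01, -3.50 to -2.57). Of 8163 tested genes 398 (4.88%) were at least 2-fold higher in members and 191 (2.34%) at least 2-fold lower, with a median of 0.06. Without sub-cluster 1 the second count was 338.

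In the naive and recirculating list 8 of 13 tested genes were at least 2-fold higher than in Gzmd/e/f-high cells and none lower (median 1.25). Of 15 chemokine and receptor genes 7 were higher and 2 lower. Cxcr3 was at 26.9 against 1.46 CPM (3.89, 2.29 to 7.28), Ccr2 at 111 against 16.0 CPM, and Ccr4 at 17.3 against 1.46 CPM. Ccr7, at 549 and 561 CPM, did not separate the classes beyond counting error (-0.16 to 0.10). The other genes furthest above were Pgm2l1, Ighm, Casc1 and Iigp1, and those furthest below were Gzmg, Serpinb9b, Gzmc, Chil3, Egr3 and Gm2663. Gzmg and Gzmc lie in the same chromosome 14 cluster as the gated Gzmd, Gzme and Gzmf, so the gate bears on their ratios. Ighm is an immunoglobulin heavy chain gene: it was at 25.5 CPM in members and 1.46 CPM in Gzmd/e/f-high cells, with 101 CPM in regulatory T cells. It made up most of the members' B cell list, and Cd79b of that list had 6 UMIs in 4 members. In sub-cluster 4 the list summed to 185 CPM and Ighm to 138 CPM, and the part of B cell RNA in this level was not tested. Of the 14 tested cytotoxic genes 4 were lower and 1, Klrg1, higher. Klrg1 was at 169 CPM in the 22 cells of sub-cluster 6, described below. It was at 1.06 CPM in the other members, leaving out those rich in myeloid transcripts, so its level rested on those 22 cells. Tnfrsf4 was at 582 and 650.0 CPM and Tnfrsf18 at 603 and 541 CPM, while the log2 ratio was -0.65 for Tnfrsf9 and 0.55 for Icos. The CD4 helper list, which holds Cd40lg and Tnfsf8, did not set members apart from this class. Of its 7 tested genes 1, Il6ra, was at least 2-fold higher and none lower (median -0.05). The log2 ratio of Cd40lg was -0.82, and 0.86 in cells with few heat-shock UMIs.

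**Figure D2:**
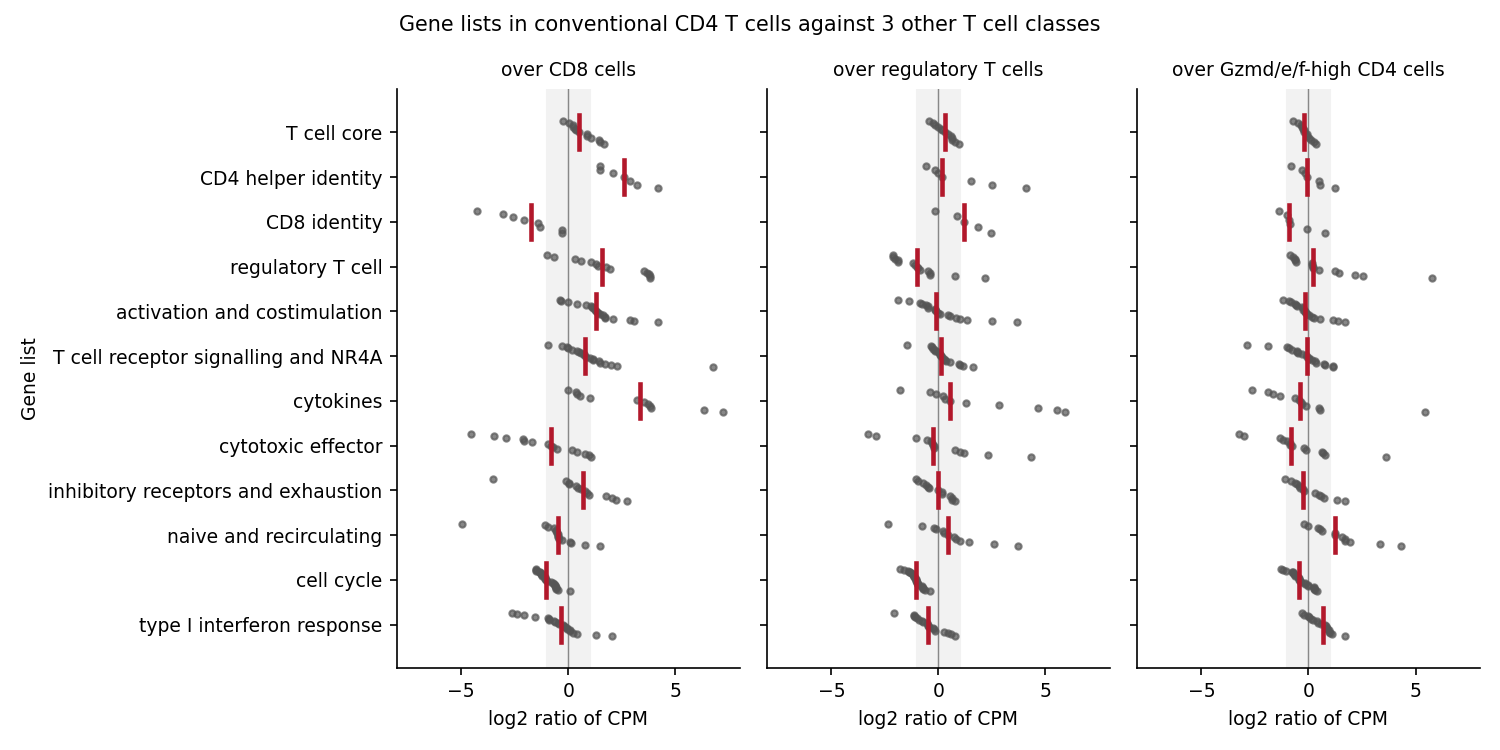
Log2 ratio of CPM in conventional CD4 T cells over CD8, regulatory T and Gzmd/e/f-high CD4 cells for 12 gene lists; each point is 1 gene with at least 20 UMIs over both sums, the red bar is the list's median and the grey band holds ratios within 2-fold. The CD4 helper list is centred at 2.59 over CD8 cells and the cell cycle list at -1.05 over both CD8 and regulatory T cells.

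Regulators of several T helper programs were detected among the members. T-bet (Tbx21), the Th1 regulator, was seen in 47 members (17.3%) and GATA3 (Gata3), the Th2 regulator, in 97 (35.8%). BCL6 (Bcl6), the follicular helper regulator, was seen in 18. Bcl6 was at 9.12 CPM, close to the 6.64 CPM of macrophages. The nuclear receptor gene Rora was at 388 CPM in members, 75.9 CPM in CD8 cells and 327 CPM in regulatory T cells. By list, Th1 genes were split over CD8 cells (3 higher and 2 lower of 12), while all 5 tested Th17 genes and 3 of 5 Th2 genes were at least 2-fold higher. Of all tested genes 6.61% were higher and 5.49% lower. The Th17 count rested on Rora, Ccr6, Ahr, Tmem176a and Tmem176b, not on Il17a, which was seen in 3 members with 8 of its 10 UMIs in 1 cell.

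Of the 9 cytokine genes counted cell by cell (Ifng, Il2, Il4, Il10, Il13, Il17a, Il21, Csf2 and Tnf), Ifng was seen in the most members. It was found in 77 (28.4%): 33 had 1 UMI, 19 had 2 to 4 and 25 had 5 or more, up to 36. The 5 richest cells held 31.2% of its UMIs. Its level was 232 CPM in members, 25.3 CPM in CD8 cells and 32.7 CPM in regulatory T cells, with log2 ratios of 3.19 (2.88 to 3.53) and 2.81 (2.35 to 3.34). Macrophages showed it in 0.967% of cells. The gate's granzyme limit bears on this value: among the 207 members with no UMI of Gzmd, Gzme, Gzmf or Ccl1 the ratio over CD8 cells was 2.19 and over regulatory T cells 1.81. In cells with few heat-shock UMIs the ratio over regulatory T cells was 7.09. Only 39 regulatory T cells were left there, and the fraction of a UMI added to each sum can set a ratio this large. The value of 7.09 is therefore read as a direction only.

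The other cytokines came from few cells. Il21, a follicular helper cytokine, was seen in 16 members with 23 UMIs and in no CD8 cell, at least 13.1-fold higher. Il2 was seen in 10 members, Il4 in 1, Il13 in 5, Il10 in 13, Csf2 in 21 and Tnf in 20. Tnf was at 11.9 CPM in members and 27.5 CPM in macrophages. Of the Il13 UMIs 54.5% came from 1 cell. Amphiregulin (Areg), a growth factor tied to tissue repair, was at 237 CPM against 16.5 CPM in CD8 cells (3.83, 3.46 to 4.25), and 2.50 without sub-cluster 1. Of 12 tested cytokine genes 8 were higher than in CD8 cells and none lower (median 3.36). That median was 0.69 in cells with few heat-shock UMIs.

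Il21 was found in 10 of the 77 members with Ifng (13.0%, 6.41 to 22.6%) and in 3.09% of the rest (1.14 to 6.61%), at median depths of 7418 and 6729 UMIs. Tcf7 and Ifng were mostly found in different cells: 5 of 59 members with Tcf7 had Ifng (8.47%, 2.81 to 18.7%), against 34.0% of those without Tcf7 (27.6 to 40.8%), at median depths of 6725 and 7055 UMIs. No member had both Ifng and Il4 or both Ifng and Il17a, but Il4 was seen in only 1 member and Il17a in 3. Counts this small cannot show whether the genes exclude each other. Il13 was seen in 5 members, 3 of them with Ifng. These pairs were described after their values were seen.

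Of 14 tested genes of the inhibitory receptor list 4 were at least 2-fold higher than in CD8 cells and 1 lower (median 0.69). The shares of all tested genes were 6.61% and 5.49%. PD-1 (Pdcd1) was seen in 158 members (58.3%) at 274 CPM, against 265 CPM in CD8 cells, a log2 ratio of 0.05 whose interval held 0 (-0.10 to 0.20). LAG-3 (Lag3) was at 259.8 against 54.6 CPM (2.25, 2.02 to 2.49), Cd200 at 74.8 against 11.2 CPM and the transcription factor Tox at 36.0 against 8.79 CPM (2.02, 1.43 to 2.67). Cd160 was lower, at 5.01 against 58.9 CPM. CTLA-4 (Ctla4) lay between the classes, at 302 CPM in members, 90.05 CPM in CD8 cells and 578 CPM in regulatory T cells.

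Members carried fewer cell cycle transcripts than CD8 and regulatory T cells: the list summed to 2176, 3958 and 3799 CPM, and to 2488 CPM in Gzmd/e/f-high cells. In the median cell the list held 0.104% of UMIs in members, 0.123% in CD8 cells and 0.139% in regulatory T cells. It held 0.0844% in Gzmd/e/f-high cells, so sums and medians order members and that class differently. Of 24 cell cycle genes 14 were at least 2-fold lower than in CD8 cells and 14 lower than in regulatory T cells. None was higher, and the medians were -1.05 in both. Of all tested genes 5.49% were lower than in CD8 cells and 5.83% lower than in regulatory T cells. Stathmin (Stmn1) was at 134 CPM in members, 381 CPM in CD8 cells and 307 CPM in regulatory T cells. The proliferation antigen gene Mki67 was at 115, 169.7 and 223 CPM. Mki67 or Top2a was seen in 32.8% of members (27.3 to 38.8%), 39.2% of CD8 cells (33.9 to 44.6%) and 51.0% of regulatory T cells (40.7 to 61.3%). The median depths of these classes were 6990, 8555 and 9216 UMIs, and these shares were not adjusted for depth. Mki67 was also seen in 19.9% of macrophages, so a single UMI was not read as a dividing cell.

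In the metabolic and interferon lists most genes stayed within 2-fold. Of 19 glycolysis and hypoxia genes 4 were higher than in CD8 cells (median 0.41, beside 6.61% of all tested genes), among them Hif1a (594 against 208 CPM), the oxygen-sensing transcription factor, and 2, Bnip3 and Slc16a3, were lower than in regulatory T cells. Of all tested genes 5.83% were lower than in regulatory T cells. Of 22 cholesterol synthesis genes 2 were higher than in CD8 cells, Sqle and Insig1. Squalene epoxidase (Sqle) was at 20.5 CPM in members, 10.1 CPM in CD8 cells and 7.74 CPM in regulatory T cells, with log2 ratios of 1.02 (0.36 to 1.68) and 1.34 (0.36 to 2.62). Macrophages held 16.9 CPM and free RNA 19.1 CPM. Of 22 type I interferon response genes 2 were higher and 4 lower than in CD8 cells (median -0.34), where 5.49% of all tested genes were lower. None of 19 was higher and 4 were lower than in regulatory T cells (median -0.50), and 3 of 18 were higher and none lower than in Gzmd/e/f-high cells (median 0.69), where 4.88% of all tested genes were higher. Ifi27l2a, an interferon-induced gene, was at 956 against 232 CPM, while Usp18, a brake on interferon signalling, was at 2.28 against 15.5 CPM.

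The series is titled for Nr4a2, so the NR4A genes were read in each class. Nr4a1 was at 90.7 CPM in members, 22.9 CPM in CD8 cells, 76.6 CPM in regulatory T cells, 129 CPM in Gzmd/e/f-high cells and 97.1 CPM in macrophages. Its log2 ratio over CD8 cells was 1.98 (1.61 to 2.37). Nr4a2 (chr2:57106830-57124003) was at 70.2, 62.3, 36.1, 120.4 and 94.1 CPM in the same order. Its ratio over CD8 cells was 0.17, with an interval that held 0 (-0.13 to 0.47). Over regulatory T cells it was 0.95 (0.46 to 1.49), and over Gzmd/e/f-high cells -0.78 (-1.10 to -0.45). In this order Nr4a2 was highest in Gzmd/e/f-high cells, members and CD8 cells did not differ beyond counting error, and regulatory T cells were lowest.

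Nr4a3 was at 108 CPM in members, 60.7 CPM in CD8 cells, 74.8 CPM in regulatory T cells, 219 CPM in Gzmd/e/f-high cells and 75.6 CPM in macrophages. Its ratio over CD8 cells was 0.84 (0.57 to 1.11), and -0.07 without sub-cluster 1, so that direction rested on those 71 cells. At least 1 NR4A UMI was seen in 175 members (64.6%, 58.6 to 70.3%) and UMIs of all 3 genes in 25 (9.23%). The free RNA of the library held 132, 65.5 and 93.1 CPM of Nr4a1, Nr4a2 and Nr4a3, against 90.7, 70.2 and 108 CPM in members, and it made up at most 6.76% of the members' UMIs. Macrophages, at a median of 14520 UMIs, showed Nr4a2 in 51.1% of cells, against 26.6% of members at a median of 6990. At 2000 UMIs per cell the shares were 11.2% of members and 16.0% of macrophages. The wider list of T cell receptor signalling genes had 9 of 20 at least 2-fold higher than in CD8 cells and none lower (median 0.80). Among these were the feedback phosphatase Dusp4 (81.6 against 16.8 CPM) and Spry1, an inhibitor of receptor signalling with no UMI in CD8 cells (at least 17.7-fold). Over regulatory T cells 3 of 19 were higher and 1 lower (median 0.12), beside 4.12% and 5.83% of all tested genes.

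Members differed among themselves, and graph clustering of the 271 cells gave 6 sub-clusters at the resolution used. Sub-clusters are numbered, not named, and since the same genes formed them, their leading genes are descriptions with no test. Tnfrsf4 was the shared feature, at 431 to 801 CPM over the 6. Sub-cluster 1 (71 cells) was led by Cxcl2, Basp1, Tnfaip2, Cst3, Il1b, H2-Eb1, Cd14 and Csf2rb, which are myeloid genes for the most part. All 12 members rich in myeloid transcripts lay in it. Its dendritic cell list summed to 10082 CPM against 692 to 1454 CPM in the other sub-clusters, and its macrophage list to 2053 CPM. Without the 12 cells the other 59 were led by Casc1, Serpinb9b, Pxdc1, Areg, Tmem135, Cystm1, Ccr7 and Ccdc184. Ccr7, the receptor that guides cells to lymph nodes, was at 1358 CPM in these 59 cells and 244 CPM in the members outside sub-cluster 1. Nr4a3 was at 232 CPM in the 71 cells and 8.62 to 88.8 CPM elsewhere.

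Sub-cluster 2 (58 cells) was led by Sidt1, S1pr1, Nr1d2 and Gramd3, and it had the highest Tcf7 (144 CPM, seen in 46.6% of its cells) and Cd40lg (42.9 CPM). Lag3 was at 9.18 CPM, Ifng at 15.3 CPM and Penk at 6.12 CPM there. Ccl5 was at 1564 CPM. Sub-cluster 3 (46 cells) was led by Lta, the gene of lymphotoxin α, at 156 CPM, with Ramp1 at 403 CPM, Phlda1 at 920.3 CPM, Ifng at 416 CPM, Penk at 701 CPM and Lag3 at 390.1 CPM. Sub-clusters 1 and 3 held the high Ifng and Penk levels, while Ifng was at 134 CPM in sub-cluster 5 and at 7.02 to 68.9 CPM in sub-clusters 2, 4 and 6.

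Sub-cluster 4 (42 cells) was led by Ighm (138 CPM), Dst, Gbp6 and Bcl2 (383 CPM), and Nr4a3 was at 8.62 CPM there. Sub-cluster 5 (32 cells) was led by the cell division genes Esco2, Kif4 and Neil3. Mki67 was at 467 CPM in it and 12.5 to 38.8 CPM elsewhere, and its cells had the highest median depth, 12952 UMIs. Sub-cluster 6 (22 cells) was led by genes that included Klrg1, Igsf23, Pard6g, Lrrc32, Ttn, Gzmb and Ccr2. Its Ikzf2 (1039 CPM), Izumo1r (407 CPM) and Klrg1 (169 CPM) lay above the levels of the regulatory T cell class, and its Il2ra (189.6 CPM) below. Its Gzmb was at 1236 CPM. Tcf7 was at 0 and Il10 was at 105 CPM. These 22 cells passed the gate with no Foxp3 UMI at a median of 6481.5 UMIs, while regulatory T cells had a median of 9216. Whether they express Foxp3 below detection was not tested. Leaving them out moved Ccr2 over regulatory T cells from -1.93 to -2.72.

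**Figure D3:**
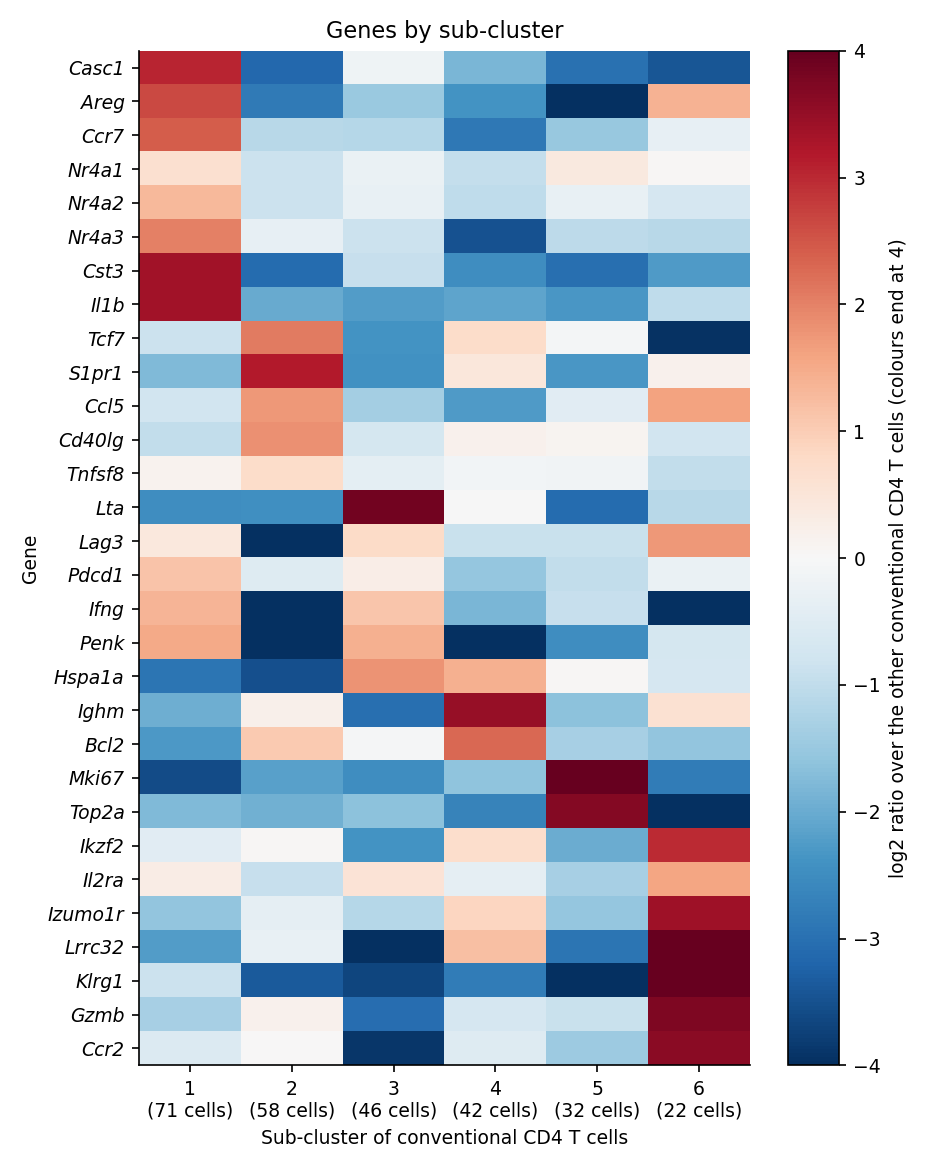
Log2 ratio of each gene in 1 sub-cluster over the other conventional CD4 T cells (colour, ending at 4 in either direction; rows are genes, columns the 6 sub-clusters with their cell numbers). Casc1, Areg and Ccr7 are high in sub-cluster 1, Tcf7 and S1pr1 in 2, Lta in 3, Ighm and Bcl2 in 4, Mki67 in 5, and Ikzf2, Izumo1r and Klrg1 in 6.

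Heat-shock transcripts divided the members as well. Hspa1a was at 2559 CPM in members, 938 CPM in CD8 cells and 2529.7 CPM in macrophages, and its near-identical neighbour Hspa1b, whose reads may be shared with it, at 1447 CPM in members. Per 10000 UMIs the pair had a median of 8.91 in members (0 to 593), 2.26 in CD8 cells, 12.4 in regulatory T cells and 15.2 in Gzmd/e/f-high cells. In 135 members the value was under 8 and in 94 it was at least 32. Sub-clusters 3 and 4 had medians of 87.9 and 79.6, against 1.94 to 13.5 in the others. This split moved with Lta and Ighm, the leading genes of those sub-clusters, and its part in them was not tested. When cells under 8 were compared in every class, the ratio of Tnfrsf4 over CD8 cells was 3.0, of Penk 7.60, of Tnfsf8 3.44 and of Nr4a1 2.23. That of Hspa1a was 0.48.

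**Figure D4:**
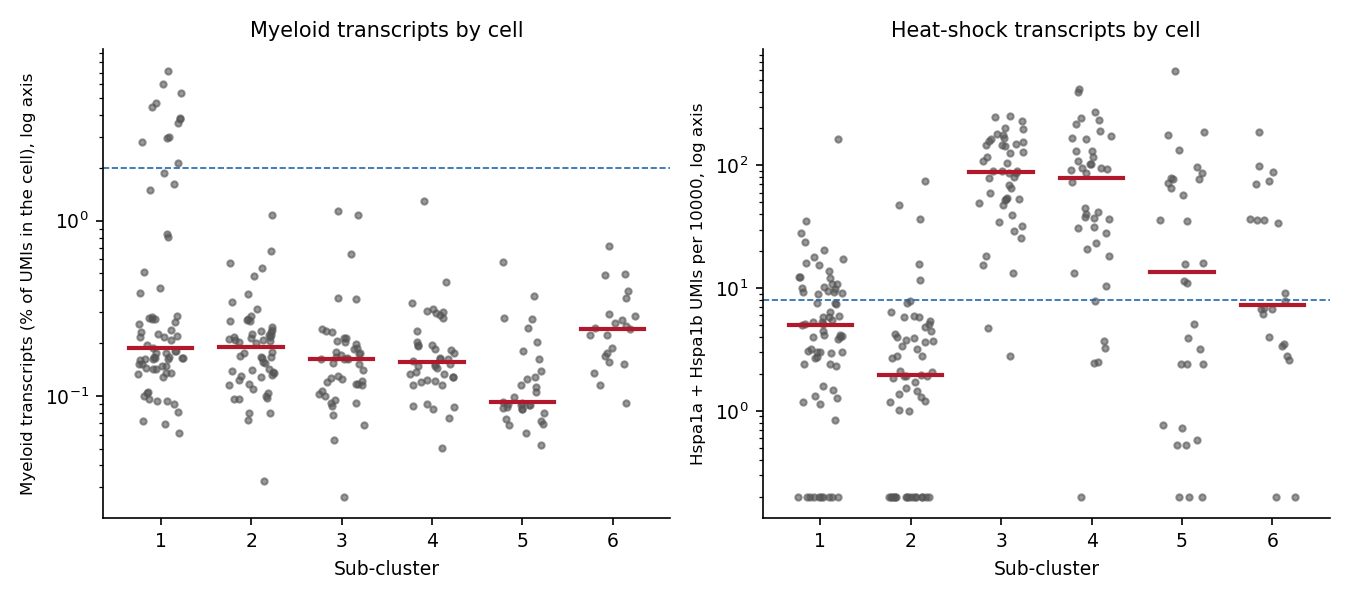
Share of UMIs in 41 myeloid genes (left, percent, log axis) and Hspa1a plus Hspa1b UMIs per 10000 (right, log axis) in each of the 271 conventional CD4 T cells by sub-cluster; red bars are medians, values of 0 are drawn at the lower edge, and dashed lines mark 2% and 8. The 12 cells above 2% lie in sub-cluster 1, and the heat-shock medians of sub-clusters 3 and 4 are 87.9 and 79.6.

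In the control library 190 of 13457 cells had at least 2 CD3 UMIs and 42 of these a Cd4 UMI. Only 5 passed the whole gate (0.0372% of control cells, 0.0121 to 0.0867%), with 29 removed by the Csf1r step. The 5 cells had 3776 to 5892 UMIs, and each had 1 Cd4 UMI. None had a UMI of Tnfrsf4 or Nr4a3. Nr4a2 had 1, 0, 2, 3 and 0 UMIs in them. With 5 cells at single UMIs of Cd4 no level was compared with the glioma members. The library and the group are the same thing here, so tissue, depth and preparation cannot be told apart in the difference between shares.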

How the data were processed

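CD45+ cells of 4 control and 4 glioma samples were measured by 3′ droplet RNA sequencing. The authors deposited raw UMI counts, 1 matrix per group (31053 genes, 6794880 barcodes), with no normalization and no map of barcodes to samples. Cell Ranger 3.0.2, STAR and Seurat 3 and the builds mm10 and GRCh38 are named per the submitters' processing notes; which step used which is not given in the sources used here. Gene identifiers were mouse. Positions are GRCm38 (GENCODE annotation).

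Gates, CPM sums, log2 ratios with 0.5 UMIs added, and exact intervals were computed with Python 3.11.15, scipy 1.17.1 and scanpy 1.11.5. The log2 ratios and their intervals were tested on simulated sums with known ratios. The gates and the other intervals were not. Ratios needed 20 UMIs over both sums; gate genes were left out. Folds against a sum of 0 use a floor of 3 UMIs of that sum. Named genes were the 8 of largest and of smallest ratio (at least 50 UMIs in the higher sum, seen in 5% of its cells, or 10% where the class had under 100 cells), up to 4 per list, the regulators and cytokines of the lists, markers and the NR4A genes. Free RNA came from barcodes ranked 45000 to 90000. Sub-clusters used 1000 variable genes, 15 components, 15 neighbours and Leiden resolution 1. Scrublet's automatic threshold marked 0.0182% of cells, so it had not worked and no doublets were removed; removing the 932 highest scores was an alternative. Some genes that the naming rule and lists hold are not reported here. The members and all lists were chosen with earlier results of these data known. Of 35 lists, the report names those with values; the plasmacytoid, NK, γδ, microglia, mast and erythroid lists summed to 278, 344, 7.29, 104, 19.1 and 8.66 CPM in members.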

Additional observations from a re-analysis of the deposited data

How the results depend on the processing

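The counts of genes past 2-fold, 69 list medians and 285 gene ratios were recomputed under 18 alternatives, as far as the limit on UMIs allowed. The members' share of glioma cells was recomputed under some of them. Other shares of cells, pairs of genes and sub-clusters were not recomputed. Of the alternatives 5 were chosen after seeing the data: cells with few heat-shock UMIs, members without sub-cluster 1, members without sub-cluster 6, cells rich in myeloid transcripts left out, and 1 Csf1r UMI allowed. No paired analysis was possible because barcodes cannot be traced to the labelled samples, and leaving out a sample was not run for the same reason. The members' share of glioma cells was 2.79% with at most 5% mitochondrial UMIs, 1.80% with 2 Cd4 UMIs, 1.89% without any Gzmd, Gzme, Gzmf or Ccl1 UMI and 2.78% with 1 Csf1r UMI allowed. The limit on low sums set the counts of genes 2-fold higher and lower: with at least 100 UMIs they were 260 and 152 against CD8 cells, 87 and 126 against regulatory T cells, and 76 and 57 against Gzmd/e/f-high cells. With no limit they were 1949 and 1416, 1149 and 1802, and 1393 and 1264. Without sub-cluster 1, 338 genes were lower than in Gzmd/e/f-high cells. The median of the chemokine list over regulatory T cells, 0.56 otherwise, was -0.050 as a mean over cells, -0.033 with at least 100 UMIs and -0.054 without sub-cluster 1. That of the cytokine list, also 0.56, was -0.10 in cells with few heat-shock UMIs. Over Gzmd/e/f-high cells the interferon-response genes Rsad2 and Ifit1 turned from 1.11 and 1.0 to -2.85 and -0.48 with 1 Csf1r UMI allowed. The cause of these changes was not tested, except that fewer or more genes are tested under a changed limit. Of 4954 recomputed gene ratios, 4625 stayed within the counting interval of the value reported. The medians of lists with a gene at 0 in the compared class were the same with that gene at its bound. Depth limits the low genes: a gene absent from the members' sum could still have 3 of its 2193785 UMIs, and no interval covers animals.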

Other observations

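Of 18 survival and apoptosis genes 4 were at least 2-fold higher in members than in CD8 cells and none lower (median 0.10), beside 6.61% of all tested genes higher. Among the 4 were the kinase gene Pim1 (335 against 143 CPM) and Bcl2l1 (63.4 against 28.5 CPM), which encodes BCL-XL. Fas ligand (Fasl) was at 32.4 CPM in members, 56.2 CPM in CD8 cells, 6.02 CPM in regulatory T cells and 64.2 CPM in Gzmd/e/f-high cells. In the tissue retention list 3 of 13 genes were at least 2-fold higher and 2 lower than in CD8 cells (median 0.78), and 1 of 12 higher and 2 lower than in regulatory T cells (median 0.12). Of all tested genes 6.61% were higher and 5.49% lower than in CD8 cells, and 4.12% and 5.83% than in regulatory T cells. The integrin subunit gene Itga1 was at 4.10 CPM against 33.6 CPM in CD8 cells, and Itgae, which binds E-cadherin, at 11.4 CPM against 47.3 CPM in regulatory T cells. S100a4, a calcium-binding protein of effector and migrating cells, was at 1386 CPM in members, 569 CPM in CD8 cells, 808 CPM in regulatory T cells and 3279.9 CPM in Gzmd/e/f-high cells.

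The chemokine genes Ccl3 and Ccl4 were at 85.7 and 150.4 CPM in members against 18.9 and 64.2 CPM in CD8 cells, while macrophages held 74.1 and 108 CPM. The fractalkine receptor gene Cx3cr1 was at 74.3 CPM in members and 4.53 CPM in CD8 cells, a log2 ratio of 4.0 that was 2.47 among members with no Gzmd, Gzme, Gzmf or Ccl1 UMI. Of 7 tested NKT and unconventional T cell genes 3 were at least 2-fold higher and 1 lower than in CD8 cells (median 0.15). The shares of all tested genes were 6.61% and 5.49%. Klrb1b was at 33.7 CPM in members, 7.73 CPM in CD8 cells and 88.7 CPM in macrophages, and Plac8 at 367 CPM in members and 903 CPM in CD8 cells.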
